A study of Mus musculus with 6 samples.

Results

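Metallothioneins are small, cysteine-rich proteins that hold zinc and copper. Described here are the metallothionein genes Mt1, Mt2 and Mt3, their zinc-sensing transcription factor gene Mtf1, and the zinc exporter genes Slc30a1 and Slc30a3, which are 6 of the 38355 genes listed in the count data and 6 of the 17120 genes with enough counts to be tested. The genes were proposed with the age comparison of these samples already known. Their differences between the ages, and whether they passed the threshold of the fit over all genes, are therefore given only as a description and are no test of these genes.

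RNA was sequenced from whole cortical hemispheres of wild-type C57BL/6 mice, an inbred strain, at 6 months of age (3 samples) and at 16 months of age (3 samples). The study describes 3 brains per age, and no treatment or transgene is named for these samples. Its methods, in the section on sorted cells, say that sequencing used male mice, and the labels of these samples give no sex. One label, on housing, names 3 months for the younger mice, and the remaining labels name 6 months. Values are counts per 1000000 assigned reads after normalization of library composition (CPM), and in a bulk sample fewer cells of a type and less RNA per cell cannot be told apart.

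MTF1 senses free zinc, enters the nucleus and binds metal response elements upstream of its target genes, among which Mt1, Mt2 and Slc30a1 are the best known. Mt1 and Mt2 are transcribed in many tissues, in the brain mainly in astrocytes, and are also induced by glucocorticoids and by oxidative stress. Mt3 is the brain form, found in neurons and astrocytes, and responds little to metals. Slc30a1 encodes ZnT1, the exporter of the plasma membrane, and Slc30a3 encodes ZnT3, which loads zinc into the synaptic vesicles of glutamatergic neurons.

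Total counts lay between 29797253 and 46519280 per sample, at which 3 counts correspond to 0.0645 to 0.101 CPM. Of the 17120 genes tested, 286 (1.67%) were called at an adjusted p under 0.05 by edgeR's quasi-likelihood test. Higher at 16 months were 134 of them (0.783% of the genes tested), and lower were 152 (0.888%). In 4059 genes (23.7%) the samples of the ages did not overlap. A pair of 16 months samples stood apart in base composition. Across genes, the deviation of a gene from the mean of its age correlated with its GC content at r = 0.59 in 16 months replicate 1 and at r = -0.58 in 16 months replicate 2, and at -0.13 to 0.16 in the other 4 samples. Values without each of these libraries, and with offsets that remove the trends with GC content and length, are therefore given beside the results that move.

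Mt3, Mt2 and Mt1 lie in this order on the plus strand of chromosome 8 (GRCm38), with gaps of 18517 bases between Mt3 and Mt2 and 5513 bases between Mt2 and Mt1. Mt4, the metallothionein of stratified epithelia, lies upstream of Mt3. Mt4 had 1 count in 1 sample of 16 months and 0 in the other 5 samples, and was not tested. The 250 bases before the annotated RefSeq start (GRCm38.p6) are given 5′ to 3′, all on the plus strand. They are printed for 3 textbook MTF1 targets, Mt1 (chr8:94178839-94179088), Mt2 (chr8:94172368-94172617) and Slc30a1 (chr1:191906531-191906780), and for Mt3 (chr8:94152357-94152606). Capitals mark matches, on either strand, to the core of the metal response element, searched as TGCACNC and TGCGCNC.
Mt1: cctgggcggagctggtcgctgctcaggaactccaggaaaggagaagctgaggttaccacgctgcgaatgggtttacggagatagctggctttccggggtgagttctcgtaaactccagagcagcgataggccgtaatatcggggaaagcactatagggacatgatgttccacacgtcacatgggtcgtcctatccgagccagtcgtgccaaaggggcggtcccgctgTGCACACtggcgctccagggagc
Mt2: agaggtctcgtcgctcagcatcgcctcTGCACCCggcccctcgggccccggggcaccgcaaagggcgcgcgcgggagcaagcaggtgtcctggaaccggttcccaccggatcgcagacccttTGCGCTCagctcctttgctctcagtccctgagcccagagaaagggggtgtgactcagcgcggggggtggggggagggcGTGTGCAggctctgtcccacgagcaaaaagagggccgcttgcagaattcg
Slc30a1: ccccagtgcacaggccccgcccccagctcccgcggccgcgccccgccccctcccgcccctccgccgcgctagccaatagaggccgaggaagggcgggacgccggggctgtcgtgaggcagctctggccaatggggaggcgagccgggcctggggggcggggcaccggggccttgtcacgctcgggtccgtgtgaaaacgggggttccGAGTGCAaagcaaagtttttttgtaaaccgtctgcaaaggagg
Mt3: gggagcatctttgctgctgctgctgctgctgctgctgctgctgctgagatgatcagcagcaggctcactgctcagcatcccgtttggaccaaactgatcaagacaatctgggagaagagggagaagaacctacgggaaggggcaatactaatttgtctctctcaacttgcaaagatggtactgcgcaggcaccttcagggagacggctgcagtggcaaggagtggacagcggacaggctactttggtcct

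The search also covered the 50 bases after each start, which are not printed. In these 300 bases Mt2 held 4 matches, Mt1 3, Slc30a1 2 and Mt3 1. Before the start lay 3 of these matches in Mt2, 1 in Mt1, 1 in Slc30a1 and 0 in Mt3, and the others lay after it. The only match of Mt3 lay 28 to 34 bases into the transcript. Slc30a3 held 1 match at the upstream of its annotated starts and 0 at the downstream one, and Mtf1 held 0. Of 32851 RefSeq windows of this length, 25.7% held at least 1 match, 7.11% at least 2, 1.97% at least 3 and 0.518% at least 4. A match is a run of letters and no measured binding site, and the RefSeq start of Mt2 lies upstream of its start in the GENCODE annotation. Whether the annotated starts are the ones mainly used in cortex was not tested. Elements outside these windows, also those of Mt1, were not searched.

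**Figure D1:**
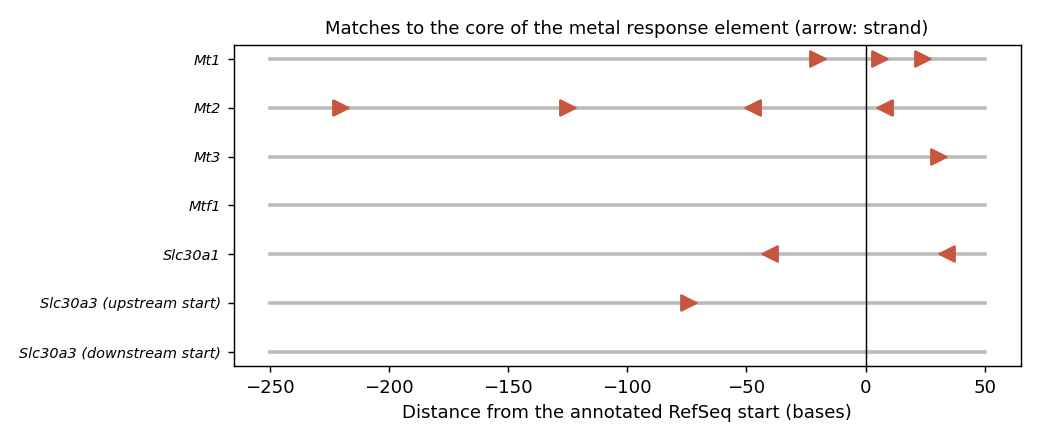
Matches to the metal response element core (arrowheads, pointing along the strand of the match) from 250 bases before to 50 bases after each annotated start, in bases on the horizontal axis. Mt2 held 4 matches and Mt1 3, against 1 in Mt3 and 0 in Mtf1.

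Mt2 was the member with the largest difference between the ages. Mt2 (ENSMUSG00000031762, chromosome 8, 94172664 to 94173568) was at 78.7, 78.3 and 76.6 CPM in 6 months replicates 1, 2 and 3 and at 113.7, 118.7 and 118.3 CPM in 16 months replicates 1, 2 and 3. Every 16 months sample lay above every 6 months sample, and the samples of each age lay close together (SD of log2 CPM 0.021 at 6 months and 0.034 at 16 months). The mean went from 77.9 ± 1.13 to 117 ± 2.76 CPM (SD, n = 3 per age), a log2 fold change of 0.59 (standard error 0.049).

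Of the 6 members 1, Mt2, passed the threshold of the age fit, beside 1.67% of all genes. The members were selected on this fit, so nothing is read from that count. Without any one of the 6 samples its log2 fold change lay between 0.57 and 0.60, and with the offsets for GC content and length it was 0.68. With these offsets the levels were 75.5, 75.2 and 74.8 CPM at 6 months and 112, 130 and 120 CPM at 16 months. An antisense gene, Gm45774, lies over exons of Mt2 and shares 41.5% of the sequence of its longest transcript and was not among the genes counted. The strand setting of the counting is not given in the sources used here, so reads of Mt2 and of Gm45774 cannot be told apart.

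Mt1, the close relative of Mt2 at the next position on the chromosome, was also at higher levels in each 16 months sample, by a smaller amount. Mt1 (ENSMUSG00000031765, chromosome 8, 94179082 to 94180327) was at 154, 144 and 143 CPM at 6 months and at 201, 163 and 179 CPM at 16 months. The ages did not overlap, but the 16 months samples were spread (SD of log2 CPM 0.153 against 0.057 at 6 months), with replicate 1 the highest. The mean was 147 ± 5.85 CPM at 6 months and 181 ± 19.3 CPM at 16 months (SD, n = 3 per age), a log2 fold change of 0.30 (standard error 0.076).

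The log2 fold change of Mt1 moved most when a library that stood apart in GC content was left out. Without 16 months replicate 1 it was 0.22, and without 16 months replicate 2 it was 0.37. With any other library left out it lay between 0.28 and 0.34. With the offsets it was 0.35. The 16 months levels were then 198, 170 and 182 CPM against 152, 141 and 140 CPM, so a spread remained. Whether GC content sets the size of the Mt1 difference was not tested.

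Mt3, the brain metallothionein and the most abundant of the group, did not show the pattern of its neighbours. Mt3 (ENSMUSG00000031760, chromosome 8, 94152607 to 94154146) was at 224, 228 and 216 CPM at 6 months and at 224, 196 and 220 CPM at 16 months. The ages overlapped, and only 16 months replicate 2 lay below the range of the younger samples. The mean was 223 ± 6.02 CPM at 6 months and 213 ± 15.3 CPM at 16 months (SD, n = 3 per age), a log2 fold change of -0.064 (standard error 0.062).

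The sign of the Mt3 difference was not stable. The transcript of Mt3 has a GC content of 62.3%, the highest of the 6 genes, and with the offsets 16 months replicate 2 moved from 196 to 225 CPM while replicate 1 moved from 224 to 205 CPM. The log2 fold change was then 0.0079. As counted, it was -0.0996 without 16 months replicate 1 and -0.0055 without 16 months replicate 2. A difference of the fold changes between metallothioneins was not tested, since the genes were selected on this contrast.

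**Figure D2:**
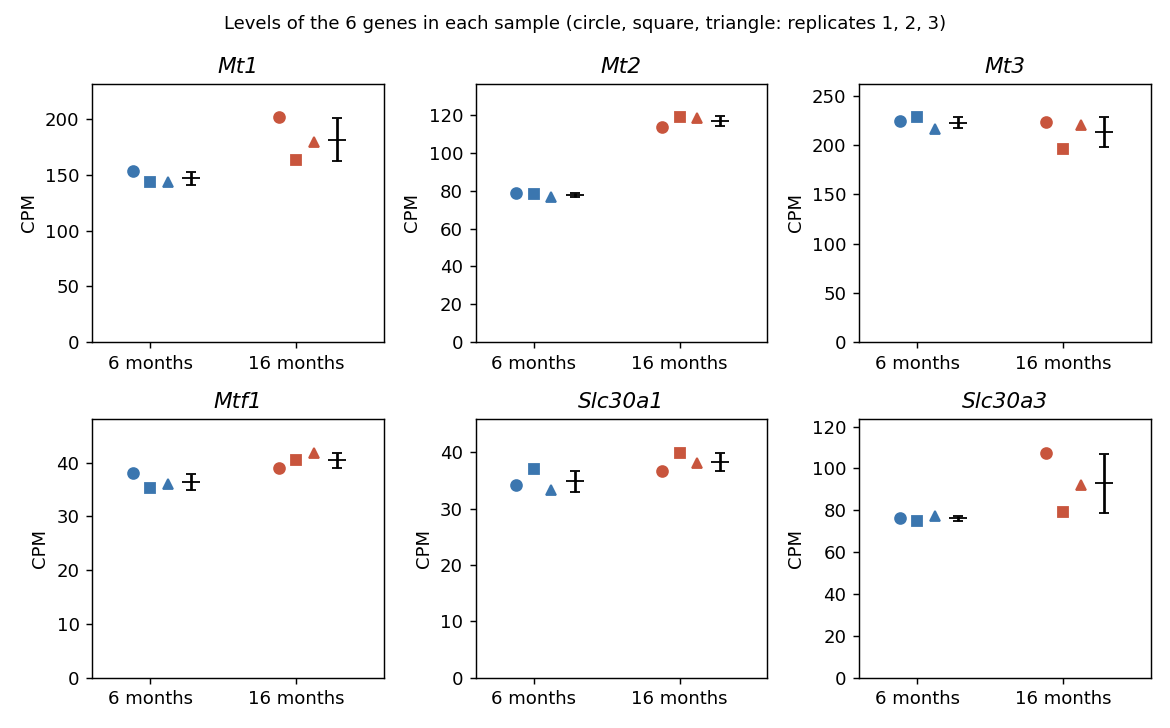
CPM (vertical axes, from 0) of the 6 genes in each sample of 6 months (blue) and 16 months (red), with the mean and SD of each age as black bars (n = 3). The ages lie apart in Mt1, Mt2, Mtf1 and Slc30a3 and overlap in Mt3 and Slc30a1, and in Mt1, Mt3 and Slc30a3 the 16 months samples are spread more widely than those of 6 months.

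Mtf1, the gene of the zinc sensor, differed little. Mtf1 (ENSMUSG00000028890, chromosome 4, 124802104 to 124849800) was at 38.1, 35.2 and 35.9 CPM at 6 months and at 39.0, 40.5 and 41.8 CPM at 16 months. The ages did not overlap, though the highest young and the lowest old sample were less than 1 CPM apart. The mean was 36.4 ± 1.48 CPM at 6 months and 40.4 ± 1.40 CPM at 16 months (SD, n = 3 per age), a log2 fold change of 0.15 (standard error 0.058). With the offsets for GC content and length the log2 fold change was 0.10, and the highest sample of 6 months and the lowest of 16 months were both at 38.2 CPM. An antisense gene, 1110065P20Rik, lies over exons of Mtf1 and shares 9.45% of the sequence of its longest transcript.

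Slc30a1, the exporter gene under MTF1, was of similar level. Slc30a1 (ENSMUSG00000037434, chromosome 1, 191906767 to 191913247) was at 34.2, 37.0 and 33.3 CPM at 6 months and at 36.7, 39.9 and 38.1 CPM at 16 months. The ages overlapped, because 6 months replicate 2 lay above 16 months replicate 1. The mean was 34.8 ± 1.94 CPM at 6 months and 38.2 ± 1.63 CPM at 16 months (SD, n = 3 per age), a log2 fold change of 0.14 (standard error 0.062). An antisense gene, 1700034H15Rik, lies over exons of Slc30a1 and shares 8.94% of the sequence of its longest transcript.

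Slc30a3, the vesicular zinc transporter of glutamatergic terminals, was narrow at 6 months and wide at 16 months. Slc30a3 (ENSMUSG00000029151, chromosome 5, 31086106 to 31108237, minus strand) was at 76.4, 74.9 and 77.2 CPM at 6 months and at 107, 79.1 and 91.8 CPM at 16 months. Each 16 months sample lay above the younger samples, replicate 2 by the least. The mean was 76.2 ± 1.18 CPM at 6 months and 92.8 ± 14.2 CPM at 16 months (SD, n = 3 per age), a log2 fold change of 0.28 (standard error 0.094). The SD of log2 CPM was 0.022 at 6 months and 0.221 at 16 months, the widest of the 6 genes.

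With the offsets for GC content and length this spread shrank. Slc30a3, whose transcript has a GC content of 60.3%, was then at 76.2, 76.7 and 77.8 CPM at 6 months and at 92.4, 89.1 and 91.8 CPM at 16 months. As counted, its log2 fold change was 0.17 without 16 months replicate 1 and 0.39 without 16 months replicate 2.

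**Figure D3:**
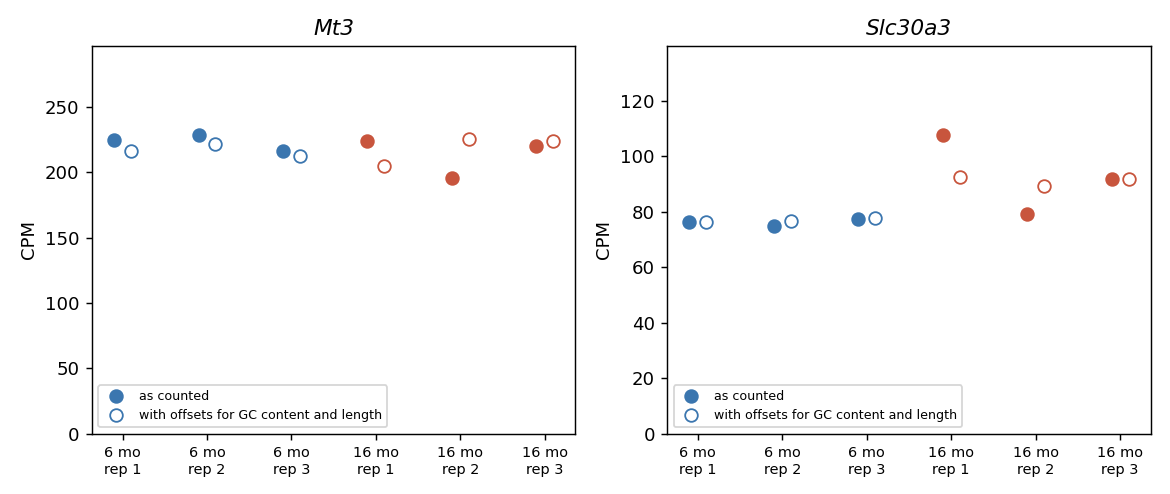
CPM of Mt3 and Slc30a3 in each sample as counted (filled) and with offsets for GC content and length (open), at 6 months (blue) and 16 months (red). In Slc30a3 the 16 months samples move from 79.1 to 107 CPM into 89.1 to 92.4 CPM, and in Mt3 replicates 1 and 2 of 16 months exchange their order.

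Of the 6 members, 4 had ages that did not overlap, where 23.7% of all genes did. The members were chosen on this comparison, so nothing is read from that count. The median log2 fold change of the 6 was 0.22, beside 0.0014 over all genes tested.

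**Figure D4:**
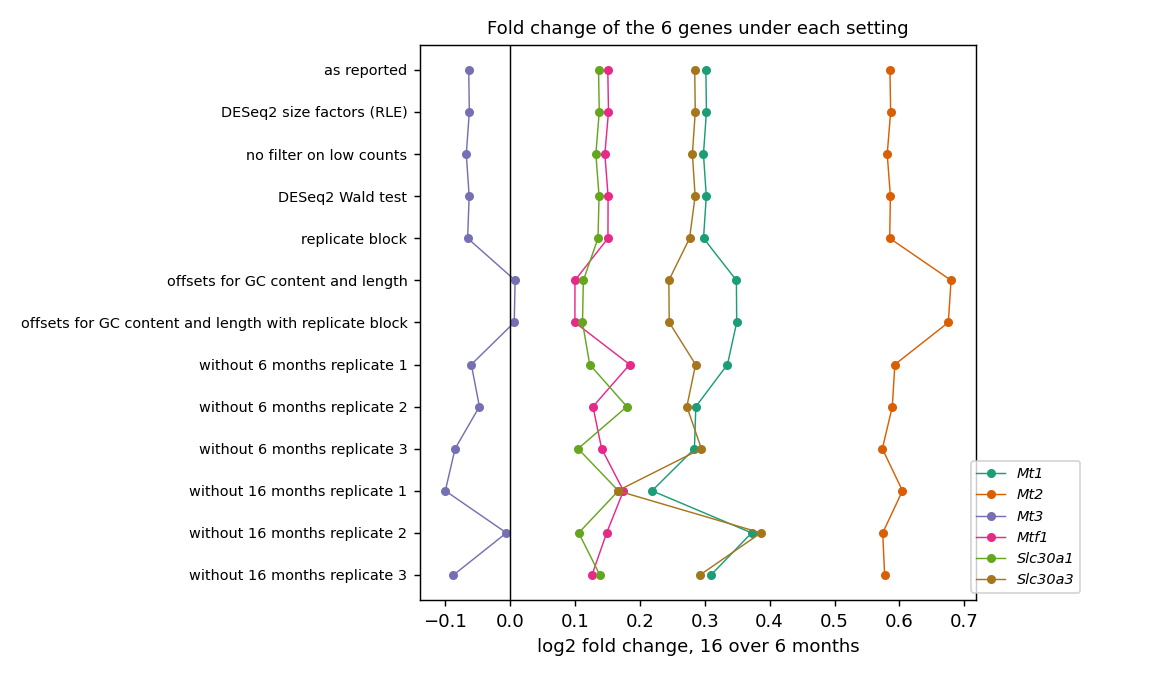
Log2 fold change, 16 over 6 months (horizontal axis), of the 6 genes as reported and in each of 12 alternative settings (rows). Mt2 stays between 0.57 and 0.68, Mt1 and Slc30a3 move with the 16 months libraries left out, and Mt3 lies on either side of 0.

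Levels can be compared between genes only per length, here as CPM per kilobase of the annotated principal transcript. Mt3 was at 416 ± 11.2, Mt1 at 268 ± 10.7 and Mt2 at 152 ± 2.21 CPM per kilobase at 6 months (SD, n = 3). Their means over all 6 samples of both ages were above 99.7%, 99.4% and 98.8% of the 14897 tested genes with such a length. At 6 months theirs were the 3 highest levels among the metallothioneins, Mtf1 and the zinc transporters. Next came the importer gene Slc39a10 at 68.3 ± 0.763 CPM per kilobase. Slc30a3 followed at 36.5 ± 0.565 CPM per kilobase, not apart from the neighbouring Slc30a9 at 37.3 ± 0.969. Slc30a1, at 6.64 ± 0.371, and Mtf1, at 4.77 ± 0.195 CPM per kilobase, lay in the lower part of the order.

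At 16 months the order of the metallothioneins was the same with narrower gaps. Mt3 was at 398 ± 28.5, Mt1 at 330 ± 35.1 and Mt2 at 229 ± 5.40 CPM per kilobase (SD, n = 3). With the length of all annotated exons, which for Mt1 include a retained intron, Mt3 was at 209, Mt2 at 132 and Mt1 at 118 CPM per kilobase at 6 months. With these lengths at 16 months the samples of Mt3, between 184 and 209.9 CPM per kilobase, and of Mt2, between 193 and 202, overlapped, and Mt2 lay above Mt3 in replicate 2. The order of Mt1 and Mt2 at both ages, and that of Mt2 and Mt3 at 16 months, thus depended on the transcript taken.

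The zinc transporter families gave a wider view of zinc handling. The ZnT (Slc30a) genes move zinc out of the cytosol and the ZIP (Slc39a) genes move it in. Of their 24 genes 22 were tested, and 0 were called higher or lower by edgeR's quasi-likelihood test or by DESeq2. In edgeR 3 of them, with the member Slc30a3 included, had an unadjusted p under 0.05. The share of all genes under that unadjusted cut is not given here, so nothing is read from this count. Among the 20 that are no members the median log2 fold change was 0.033, with 11 above 0. The ages did not overlap in 5 of the 20, beside 23.7% of all genes.

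In the ZnT list 5 of 9 tested genes lay above 0 with a median of 0.030, and in the ZIP list 8 of 13 with a median of 0.047. Slc39a10, the most abundant transporter per length, was at 376 ± 4.20 CPM at 6 months and 338 ± 22.5 CPM at 16 months (SD, n = 3 per age), a log2 fold change of -0.15 (standard error 0.058, edgeR adjusted p = 0.209). Slc39a5, an importer of pancreas and intestine chosen here after its values were seen, had the largest fold change of the families at 0.89 (standard error 0.29, edgeR adjusted p = 0.158), from 0.254 ± 0.047 to 0.489 ± 0.102 CPM and on 6 to 19 counts per sample. With the offsets for GC content and length 2 transporters were called, the member Slc30a3 as higher and Slc39a10 as lower. This stands beside 2376 called of all 17120 genes tested in that setting. Without 16 months replicate 2 there were 4 such transporters, Slc30a3 and Slc39a3 as higher and Slc30a4 and Slc39a10 as lower. Of all 17377 genes tested without that sample, 2211 were called.

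**Figure D5:**
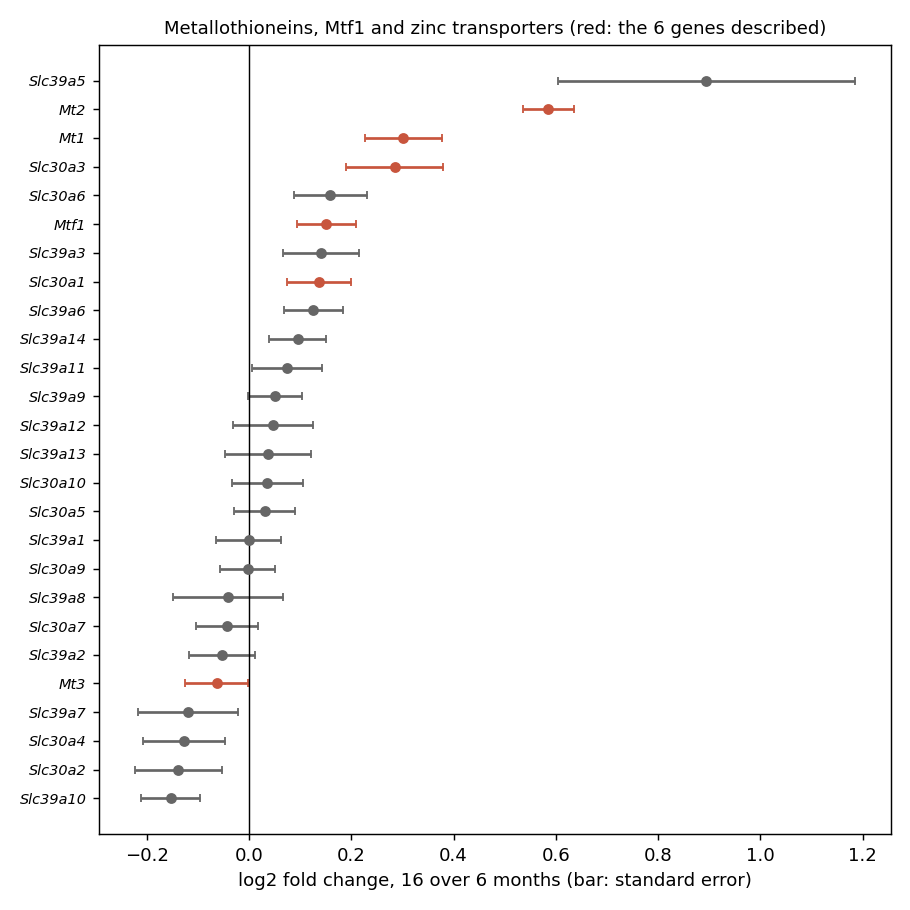
Log2 fold change, 16 over 6 months (points), with its standard error (bars), of the metallothioneins, Mtf1 and the 22 tested zinc transporters, with the 6 members in red. Slc39a5, at 0.89, has the widest bar, and Slc39a10, at -0.15, is the lowest.

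The other genes placed under MTF1 lay on both sides of 0. Of 9 genes placed there, all tested and including the members Mt1, Mt2 and Slc30a1, 1 was past the threshold, the member Mt2. Above 0 lay 5 of the 9, with a median log2 fold change of 0.034. Of those that are no members, Pgf (0.27) and Gclc (0.034) lay above 0. Ndrg1 (-0.029), Csrp1 (-0.063), Selenow (-0.12) and Slc39a10 (-0.15) lay below it. The list does not separate genes by the direction in which MTF1 acts on them. Of 9 tested genes of vesicular zinc, which hold Slc30a3 and the adaptor complex that carries it to vesicles, 0 were called and the median was 0.075. After Slc30a3 the largest difference there was that of the vesicular glutamate transporter gene Slc17a7, at 0.16 (edgeR adjusted p = 0.380).

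Metallothioneins also bind copper, and iron shares several transport routes with zinc. Of 12 tested copper genes 0 were called, 3 lay above 0 and the median was -0.053. The largest difference was in Commd1, a regulator of copper export, at -0.19 (edgeR adjusted p = 0.164). Of 10 iron genes 0 were called, with a median of -0.014 and the largest difference in Heph, a ferroxidase gene, at 0.32 (edgeR adjusted p = 0.0812).

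Genes induced by glucocorticoids, a class to which Mt1 and Mt2 belong, were higher at 16 months in part. Of 17 such genes 6 were called higher and 0 lower, beside 0.783% and 0.888% of all genes, and 16 lay above 0 with a median log2 fold change of 0.28. The 5 with the smallest p were Plin4, a lipid droplet protein gene (1.11, edgeR adjusted p = 0.000607), Fkbp5, a regulator of the glucocorticoid receptor (0.47, adjusted p = 0.00240), Tsc22d3 (0.51, adjusted p = 0.00472), Cdkn1a, a cell cycle inhibitor gene (0.41, adjusted p = 0.00584), and Klf9 (0.34, adjusted p = 0.00939). The summed level of the list was 788 to 815 CPM at 6 months and 975 to 990 CPM at 16 months. The list was drawn up with results of these samples known, so its count is not independent evidence, and its part in the values of Mt1 and Mt2 was not tested.

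Markers of the cells that hold these transcripts were set beside them. The summed level of 15 astrocyte markers was 7271 to 7623 CPM at 6 months and 7822 to 8455 CPM at 16 months, with 0 called higher and 1 called lower, Gfap, an intermediate filament gene of astrocytes (log2 fold change -0.47, edgeR adjusted p = 0.00332). Slc1a2, the largest part of the astrocyte sum, had a mean of 4129 CPM at 6 months and 4597 CPM at 16 months. The log2 fold change was above 0 in 9 of the 15 markers. In 8 of the 15 the ages did not overlap, beside 23.7% of all genes. In 6 of these the 16 months samples were the higher, and in the other 2, Gfap and S100b (log2 fold change -0.25, edgeR adjusted p = 0.0549), they were the lower. S100b was named after its values were seen. The sum of 8 excitatory neuron markers, the cells of Slc30a3, overlapped between the ages at 4455 to 4714 and 4619 to 5326 CPM, with 0 called. Its highest sample was 16 months replicate 1, which was also the highest for Slc30a3.

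Sums also overlapped for 7 microglia markers (393 to 408 and 405 to 407 CPM, with 1 called lower, Aif1) and for 6 oligodendrocyte markers (6810 to 6880 and 6870 to 6895 CPM, 0 called). Endothelial markers summed to 166 to 169 CPM at 6 months and 160 to 165 CPM at 16 months, with 0 of 8 called. Markers of structures next to the cortex were higher at 16 months in part. Their sums were 211 to 218 and 232 to 250 CPM for dentate gyrus (3 of 8 tested called higher), 20.5 to 21.6 and 28.9 to 32.7 CPM for choroid plexus (1 of 7), and 184 to 192 and 191 to 220 CPM for thalamus (4 of 6). Over all genes tested, 0.783% were called higher and 0.888% lower. Called in the dentate gyrus list were Dsp (log2 fold change 1.26), Lct (1.12) and C1ql2 (0.86). The called choroid plexus gene was Ttr, with a mean of 8.95 CPM at 6 months and 17.8 CPM at 16 months. Kl, of the same list, was at 5.38 and 5.29 CPM, and 5 of the 7 tested genes lay above 0. Rora, the largest part of the thalamus sum, was at 143 CPM at 6 months and 138 CPM at 16 months. Called in the thalamus list were Shox2 (log2 fold change 4.06, on 4 counts in each 6 months sample), Prkcd (0.91), Tcf7l2 (0.44) and Plekhg1 (0.32). The ages lay apart in the sums for astrocytes (in large part Slc1a2), endothelial cells, dentate gyrus and choroid plexus (in large part Ttr). The part of any of these lists in the values of the members was not tested.

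How alike the genes ran across the 6 samples is given as a description, since all values share their libraries, their depth and the difference in base composition. The genes most like Mt1 by Pearson's r of log2 CPM were Uba1, Astn2, Fads2, Tmem28 and Tuba1a, with r between 0.997 and 0.998. Slc30a3 came at position 337 of this order (r = 0.959), Mt2 at position 1991 (r = 0.816) and Mt3 at position 8479 (r = 0.0074). For Mt3 the order was led by Cfap221, Rab32, Galt, Dmac2 and Dvl2, with r between 0.980 and 0.995.

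Within the ages the members fell into different patterns. With each age centred on its mean, Mt1 ran with Slc30a3 (r = 0.936) and with Mt3 (r = 0.815), and against Mt2 (r = -0.615). Slc30a3 ran against Mt2 as well (r = -0.804). Over 6 samples these values turn largely on 16 months replicates 1 and 2, in which Mt1 and Slc30a3 were highest and lowest of their age.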

How the data were processed

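Per the study's methods the authors used fastq-mcf for trimming, STAR for alignment to mm10 and HTSeq for counting per Ensembl gene. The submitters' processing notes name CASAVA 1.8.2, STAR 2.3.0e and featureCounts 1.5.0-p1. The deposited files hold raw counts per gene, without normalization, and end with summary lines in the form of HTSeq, which were left out. The Ensembl release and the strand setting are not given in the sources used here.

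Of the 38355 identifiers 36602 were matched to GENCODE annotation of GRCm38, and 1753 were not. The counts were tested in edgeR 4.0.16 under R 4.3.3 (TMM, filterByExpr, quasi-likelihood test, Benjamini-Hochberg adjustment at 0.05 over 17120 genes, no covariates). Log2 CPM used a prior count of 2. Members and lists were chosen with earlier results of these data known. Single genes that show what makes up a list were named after the values were seen. The named genes are the members, the transporters by counts and the most abundant one, and the 5 genes most like Mt1 and Mt3. In each other list of pathway genes they are the called genes (at most 5) or the one with the largest change. In the marker lists they are the called genes.

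The alternatives were DESeq2 1.42.0 or its size factors, no filter on low counts, the replicate number as a block, offsets for GC content and length (medians over 20 bins, for the 98.7% of tested genes with both values), both together, and each sample left out. The test was checked on simulated counts, where it recovered 84% of 200 changed genes and 2.89% of its calls were false. The simulated counts hold no trend with GC content, so the check does not cover the libraries that stood apart. A blastn 2.17.0 search of the annotated transcripts (97% identity over 100 bases) found partners for some genes, and those of members are named. The promoter table of RefSeq matched all 6 members. Figures were drawn with matplotlib 3.10.9. P-values set the age difference of a gene against the spread between these samples, estimated with information from all genes. A floor of 3 counts covers counting error only.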

Additional observations from a re-analysis of the deposited data

How the results depend on the processing

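The log2 fold changes of Mt1, Mt2, Mtf1, Slc30a1 and Slc30a3 were above 0 in all 12 alternatives, and that of Mt3 changed sign under the offsets. As reported, 286 of 17120 genes were called, and 2376 of 17120 with offsets for GC content and length. Without a filter on low counts 648 of 27569 were called, and by DESeq2 470 of the 17623 with an adjusted p. For the members, which were chosen on this comparison so that their calls are a description only, 1 was called as reported, 3 without the filter (Mt1, Mt2 and Slc30a3), 2 by DESeq2 and 3 with the offsets. For the zinc transporters, among which the member Slc30a3 is counted again, the calls were 0 as reported, 1 without the filter (Slc30a3) and 2 with the offsets (Slc30a3 and Slc39a10). The log2 fold change of Mt2 was 0.68 with the offsets and 0.68 with the offsets and the replicate block. Leaving out one sample gave 48 to 2211 called genes (of 17287 to 17377 tested), 1 to 3 called members and 0 to 4 called transporters. By library, all genes called were 55, 57 and 48 without 6 months replicates 1, 2 and 3, and 995, 2211 and 58 without 16 months replicates 1, 2 and 3. The cause was not tested.

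Both ages carry replicate numbers 1 to 3, which mark separate samples. Same-numbered samples deviated together at r = 0.180, 0.0958 and 0.0351, and not every sample correlated best with its own number. With the replicate block 783 of 17120 genes, 3 members and 1 transporter, the member Slc30a3, were called. With the offsets and the replicate block these were 3138 of 17120 genes, 3 members and 3 transporters, Slc30a3 among them. The median standard error over all genes was 0.084 on the log2 scale.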
